A study of Mus musculus with 6 samples.

Results

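Serotonin, extracellular nucleotides and adenosine act on vascular smooth muscle through receptors. Described here are 10 receptors of these ligands: Htr2a, Htr2b, Htr1b, P2rx1, P2rx4, P2ry1, P2ry2, P2ry6, P2ry14 and Adora2a. They were chosen by gene symbol with earlier results of these data known, and their differences between groups are therefore given as a description. Of the 10, 9 had a row in the table of 32179 genes and 8 passed the filter on low values. Htr2b was not analysed here. The libraries came from vascular smooth muscle cells (SMC) sorted from skeletal muscle of male C57BL6J mice aged 8 to 24 weeks. There were 3 libraries from tamoxifen-induced mice of the genotype iSM-G5C-KO, which the study's title gives as depleted of the orphan receptor GPRC5C in smooth muscle, and 3 from tamoxifen-induced control mice. All mice carried the mTmG reporter, which turns on EGFP where Cre has recombined, and EGFP was the sorting signal. Before the sort, cells that bound antibodies to CD31, CD45 or Ter119, which mark endothelium, leukocytes and erythroid cells, were removed on magnetic beads. Every library is labelled Gprc5c-floxed, although wild type is the controls' genotype label. The sources used here name neither the promoter that drives Cre nor any pooling of animals.

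These receptors couple nerve, platelet and metabolic signals to vessel tone. HTR2A and HTR2B activate Gq and phospholipase C, and HTR2A is the main serotonin receptor of arterial contraction, while HTR1B couples to Gi. P2X receptors are cation channels opened by ATP. P2Y receptors are G protein-coupled: P2RY1 responds to ADP, P2RY2 to ATP and UTP, P2RY6 to UDP and P2RY14 to UDP-glucose. ADORA2A couples adenosine to Gs and raises cyclic AMP, which relaxes smooth muscle. Ectonucleotidases link these systems by turning ATP into adenosine.

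The libraries held an estimated 1481186 to 2935114 reads, and values are normalised counts, that is, reads per gene divided by 1 factor per library. Control library 3 had 29707 genes above 0, against 20481 to 21179 in the other 5, with 7733 genes at a value of 1. Gprc5c had 328, 305 and 360 normalised counts in KO libraries 1, 2 and 3, against 428, 532 and 497 in control libraries 1, 2 and 3, and the groups did not overlap. The KO mean was 68.2% of that of controls, with a log2 fold change of -0.55 that did not pass over all genes (limma, adjusted p = 0.999; 0.142 with the replicate block). All 8 smooth muscle markers were read in every library, and their summed level was 8640 to 10093 in KO libraries and 9801 to 10465 in controls. Over all 12735 tested genes, 0 passed limma's test at an adjusted p of 0.05 (percent called: 0), and 230 (1.81%) had an unadjusted p under 0.05.

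P2rx1 was the most abundant of the receptors, at 62.9 ± 23.7 normalised counts per kb of exon in KO libraries and 87.2 ± 30.6 in controls (SD, n = 3 each). It encodes the ATP-gated channel through which sympathetic nerves contract small arteries. Adora2a followed at 34.0 ± 14.8 per kb in KO libraries and 19.9 ± 6.05 in controls. Then came P2ry1, with 14.7 ± 2.69 in KO libraries and 14.4 ± 3.01 in controls, and P2ry2, with 9.68 ± 7.50 in KO libraries and 14.1 ± 8.31 in controls. P2rx4 and Htr2a lay lower, at 9.02 ± 2.30 and 3.69 ± 3.84 per kb in KO libraries and 7.69 ± 2.72 and 7.31 ± 3.84 in controls. P2ry14, Htr1b and P2ry6 closed the order, with means over all 6 libraries of 3.81, 3.67 and 2.71 per kb. Each receptor's range over the 6 libraries overlapped that of its neighbour in this order. These ranges set aside that all receptors were read in the same libraries, and the order within each library was not tested. P2rx1 stood at the 90.9th percentile of all tested genes by level per kb, Adora2a at the 59.7th and Htr2a at the 11.9th.

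**Figure D1:**
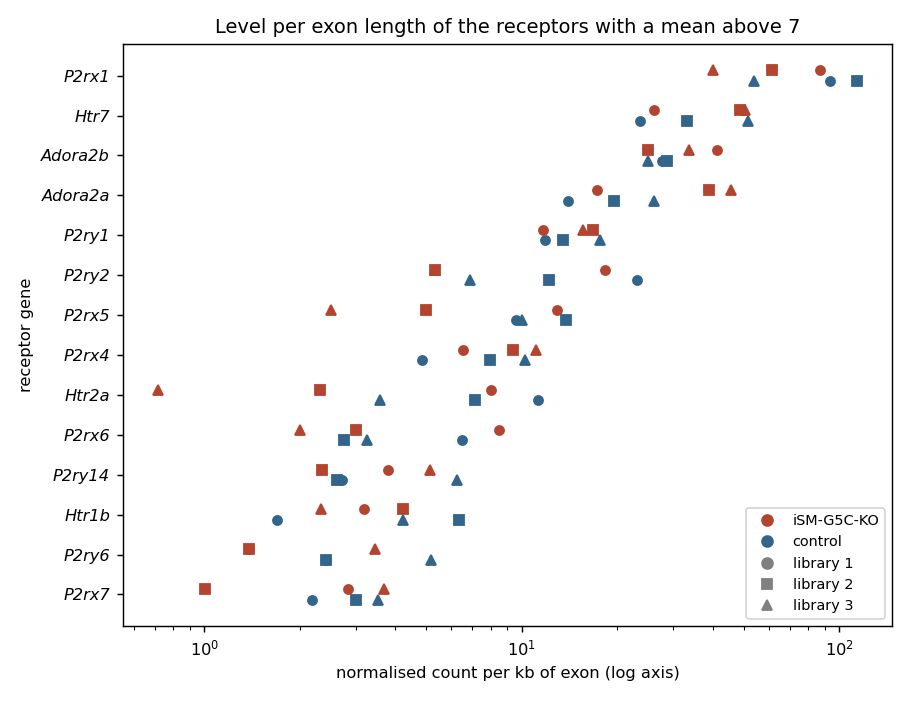
Normalised counts per kb of exon (log axis) for the 14 receptors of the 4 families whose mean over 6 libraries was above 7, with iSM-G5C-KO libraries in red and control libraries in blue and a marker shape per library number. P2rx1 reaches from 40.0 to 114.3 per kb, and Htr2a has its lowest value, 0.714 per kb, in KO library 3.

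The upstream sequences of 3 receptors are shown. The table of windows used here gave none for Adora2a and P2ry6, so the choice was among the other 8. P2rx1 is the most abundant, Htr2a varied most among libraries, and P2rx4 had its highest value in the library where Htr2a had its lowest. Each is the 250 bases before the RefSeq start on GRCm38.p6, plus strand, at chr11:72998895-72999144, chr14:74640624-74640873 and chr5:122707294-122707543. The gene starts deposited with the counts, 72999103 for P2rx1 and 74640840 for Htr2a, lie inside their windows. That of P2rx4, 122707544, follows its window. Capitals mark a GC box, spelled GGGCGG, or an E-box on either strand, where the E-box is any match to CANNTG.
P2rx1: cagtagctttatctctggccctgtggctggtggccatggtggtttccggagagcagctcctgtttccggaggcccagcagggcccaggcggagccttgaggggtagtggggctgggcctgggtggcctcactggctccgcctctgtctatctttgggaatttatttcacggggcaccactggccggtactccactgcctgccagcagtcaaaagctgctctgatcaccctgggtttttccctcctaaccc
Htr2a: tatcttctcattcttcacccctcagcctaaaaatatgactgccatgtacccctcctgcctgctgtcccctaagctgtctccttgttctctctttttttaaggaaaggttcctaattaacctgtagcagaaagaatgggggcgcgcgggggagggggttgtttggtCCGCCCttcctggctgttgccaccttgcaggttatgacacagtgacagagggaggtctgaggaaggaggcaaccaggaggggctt
P2rx4: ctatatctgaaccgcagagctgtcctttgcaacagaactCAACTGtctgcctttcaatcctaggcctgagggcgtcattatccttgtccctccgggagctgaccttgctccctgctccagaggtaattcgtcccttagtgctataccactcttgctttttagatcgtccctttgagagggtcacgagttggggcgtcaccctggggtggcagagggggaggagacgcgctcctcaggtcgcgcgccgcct
The window of Htr2a held 1 GC box, that of P2rx4 held 1 E-box, and that of P2rx1 held neither. Of all 32851 windows of this length in the table, 32.7% held a GC box and 66.2% held an E-box. The CArG box, the binding motif of serum response factor, was in 1.47% of all windows and in none of the 12 windows found for 8 of the 10 receptors.

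Htr2a had the lowest KO level relative to control. It had 45, 13 and 4 normalised counts in KO libraries 1, 2 and 3, against 63, 40 and 20 in control libraries 1, 2 and 3, which corresponds to an estimated 3 to 83 reads per library. KO libraries 2 and 3 lay below every control, but KO library 1 was above controls 2 and 3, so the groups overlapped. The mean was 20.7 ± 21.5 in KO libraries and 41.0 ± 21.5 in controls (SD, n = 3 each), so KO libraries held 50.4% of the mean of controls. The KO-to-control log2 fold change was -1.37, with SE 0.79 and a 95% interval of -3.20 to 0.46 (limma, adjusted p = 0.999). It was -0.58 without KO library 3 and -2.19 without KO library 1. With the replicate number as a block the standard error was 0.34 (limma, adjusted p = 0.229).

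Htr1b had 15, 20 and 11 normalised counts in KO libraries, against 8, 30 and 20 in controls. The control values enclosed all 3 KO values. The log2 fold change was -0.18 with a 95% interval of -1.34 to 0.98 (limma, adjusted p = 0.999), and its sign turned when control library 2 was left out (0.21). With sample quality weights it was -0.65. The serotonin receptor with the highest level was Htr7, a Gs-coupled receptor known for relaxing vessels, which is not among the 10. It had 89, 166 and 172 in KO libraries and 80, 113 and 175 in controls, and its log2 fold change was 0.23, with SE 0.34 (limma, adjusted p = 0.999). Per kb, Htr7 averaged 41.9 in KO libraries and 36.1 in controls, which was above Htr2a in both groups. Of 14 listed serotonin receptor genes, 9 had a row, and the 6 others with one (Htr1a, Htr1f, Htr3a, Htr3b, Htr4 and Htr6) were at or below 4 in every library. Htr1f, Htr3a, Htr3b and Htr4 were above 0 in control library 3 alone, the library with the excess of genes at low values.

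P2rx1 was lower in each KO library than in the control of the same number. Its values were 229, 161 and 105 in KO libraries 1, 2 and 3, against 245, 300 and 142 in control libraries 1, 2 and 3. KO library 1 and control library 1 were close, while the libraries numbered 2 stood far apart, and the groups overlapped. The mean was 165.0 ± 62.1 in KO libraries and 229.0 ± 80.2 in controls (SD, n = 3 each), so KO libraries held 72.1% of the mean of controls. The KO-to-control log2 fold change was -0.47, with SE 0.35 (limma, adjusted p = 0.999), and the SE was 0.15 with the replicate block (limma, adjusted p = 0.301). The fold change was -0.19 without KO library 3 and -0.78 without control library 3, and -0.89 with sample quality weights. P2rx1 is also a platelet receptor. The summed level of 3 platelet and megakaryocyte markers was 17 to 31 in KO libraries and 9 to 35 in controls. Ppbp, 1 of the 3, was at 0 in control libraries 2 and 3. Their part in the P2rx1 values was not tested.

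P2rx4, a channel also found in endothelium and macrophages, had 46, 66 and 78 in KO libraries, against 34, 56 and 72 in controls. Each KO library was above the control of the same number, and the groups overlapped. The log2 fold change was 0.26 with a 95% interval of -0.47 to 0.99 (limma, adjusted p = 0.999), and -0.037 without control library 1. Among the other P2X subunits, P2rx5 had 31, 12 and 6 in KO libraries and 23, 33 and 24 in controls, with a log2 fold change of -0.94 and a standard error of 0.54 (limma, adjusted p = 0.999). P2rx7, best known from macrophages, and P2rx6 lay between 6 and 34 in all libraries, with log2 fold changes of -0.34 for P2rx7 and -0.05 for P2rx6. P2rx2 and P2rx3 were at or below 3. None of the 5 tested P2X genes passed the test, and 4 of them had a lower mean in KO libraries on the log2 scale.

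**Figure D2:**
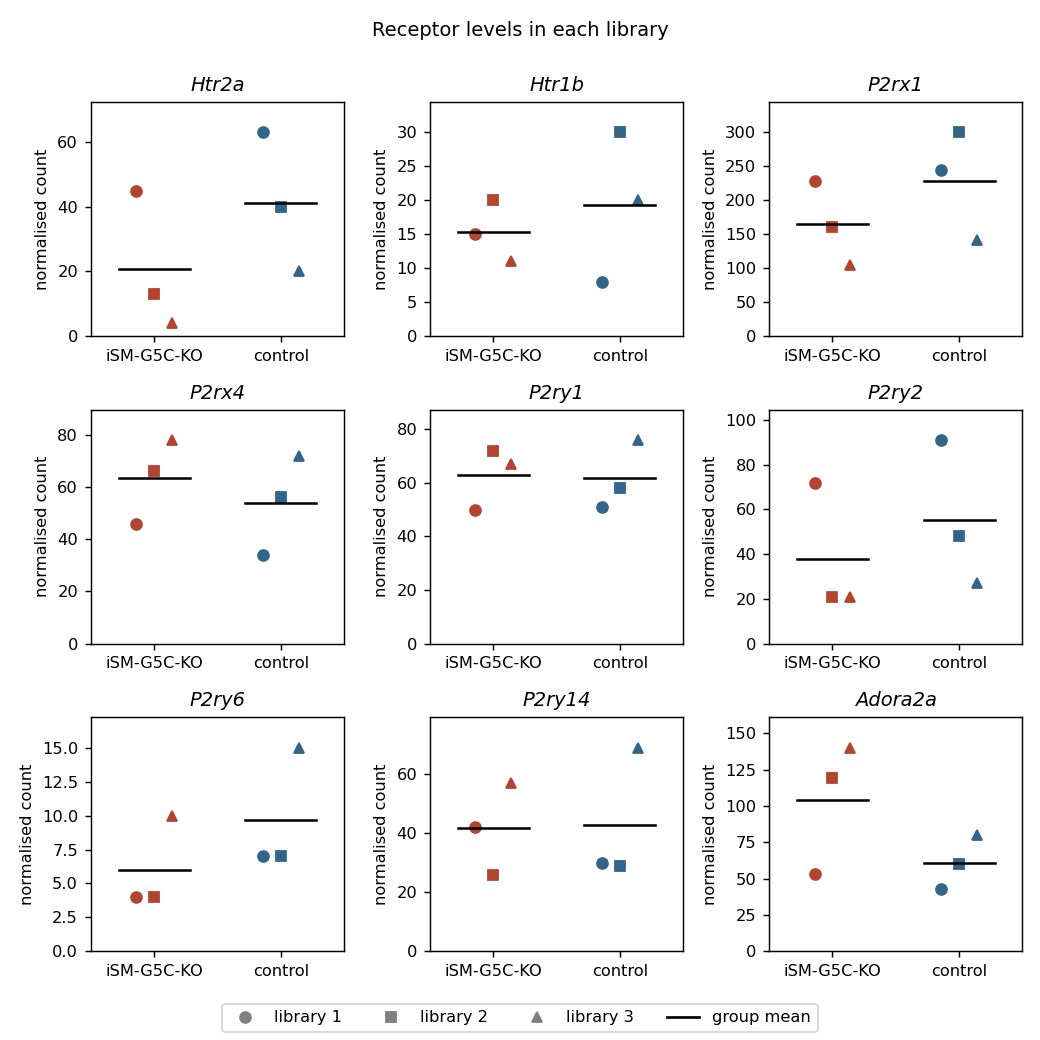
Normalised counts of the 9 receptors in each library, iSM-G5C-KO on the left and control on the right of each panel, with a marker shape per library number and a line at the group mean. In every panel the groups overlap, and the circles of library 1 stand apart from the other shapes for Htr2a, P2ry2 and, at the low end, P2rx4, P2ry1 and Adora2a.

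P2ry2 resembled Htr2a. Its values were 72, 21 and 21 in KO libraries 1, 2 and 3, against 91, 48 and 27 in control libraries 1, 2 and 3. Both libraries numbered 1 were above the other 4, and within each number the KO library was the lower. The mean was 38.0 ± 29.4 in KO libraries and 55.3 ± 32.6 in controls (SD, n = 3 each), and the KO-to-control log2 fold change was -0.61, with SE 0.58 (limma, adjusted p = 0.999). The SE was 0.23 with the block (limma, adjusted p = 0.400). Leaving out control library 1 gave a log2 fold change of -0.17, leaving out KO library 1 gave -1.19, and sample quality weights gave -0.95.

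P2ry1 showed the smallest spread of the 9 receptors. It had 50, 72 and 67 in KO libraries and 51, 58 and 76 in controls, 1.52-fold between the lowest and the highest library. The log2 fold change was 0.03 with a 95% interval of -0.47 to 0.54 (limma, adjusted p = 0.999), so that a difference of more than 0.54 in either direction on the log2 scale lay outside it. An antisense gene, Gm37035, covers 23.1% of the exonic bases of P2ry1, and its values were at or below 1 in every library. For Htr1b, the antisense gene D430036J16Rik covers 18.0% of the exonic bases. It had 1, 0 and 0 in KO libraries and 1, 2 and 3 in controls. Gm44545, on the strand opposite to P2ry6, shares 0 exonic bases with that receptor.

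P2ry6 was at 4, 4 and 10 in KO libraries and 7, 7 and 15 in controls, below the filter, and was not tested. Library 3 was the highest in both groups, and each KO value was below the control of the same number. P2ry14 had 42, 26 and 57 in KO libraries, against 30, 29 and 69 in controls, with a log2 fold change of 0.02 and a 95% interval of -0.94 to 0.97 (limma, adjusted p = 0.999). Its sign turned without control library 1 (-0.17), control library 2 (-0.20), KO library 1 (-0.02) or KO library 3 (-0.24). P2ry14 lies at chr3:59113855-59153492 on the minus strand, inside Med12l on the plus strand, and the exons of both genes share 0 bases. Med12l had 200, 61 and 74 in KO libraries and 207, 159 and 96 in controls. The sources used here do not say whether counting used strand, and without it, intronic reads of Med12l on P2ry14 exons cannot be told apart from those of P2ry14. P2ry4, P2ry10, P2ry12 and P2ry13 were at or below 5 in every library.

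Adora2a had the largest positive difference among the 8 tested receptors. It had 53, 119 and 140 normalised counts in KO libraries 1, 2 and 3, against 43, 60 and 80 in control libraries 1, 2 and 3. KO libraries 2 and 3 exceeded every control, while KO library 1 lay between control libraries 1 and 2. The mean was 104.0 ± 45.4 in KO libraries and 61.0 ± 18.5 in controls (SD, n = 3 each), and the KO-to-control log2 fold change was 0.69, with SE 0.38 and a 95% interval of -0.21 to 1.59 (limma, adjusted p = 0.999). The standard error was 0.17 with the block (limma, adjusted p = 0.213). The value was 0.42 without KO library 3 and 1.11 without KO library 1. Endothelial cells, which the CD31 depletion was meant to remove, also express Adora2a. Of 8 endothelial markers 8 had a higher mean in KO libraries on the log2 scale, and none was at 0 in any library. Their summed level was 336, 847 and 812 in KO libraries against 307, 433 and 569 in controls. Flt1, the highest of them, alone had 117, 482 and 380 in KO libraries and 100, 185 and 241 in controls. The KO mean ran from 111% of that of controls for Erg to 204% for Egfl7. The part of endothelial cells in the difference of Adora2a was not tested. In bulk samples, more cells of a type and more RNA per cell cannot be told apart.

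The second Gs-coupled adenosine receptor, Adora2b, had 76, 46 and 62 in KO libraries and 51, 53 and 46 in controls, with a log2 fold change of 0.26 and a standard error of 0.21 (limma, adjusted p = 0.999). Per kb its level, 33.2 in KO libraries and 27.1 in controls, was close to that of Adora2a. Adora1, which couples to Gi, was at 12, 0 and 1 in KO libraries and 8, 2 and 5 in controls.

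Across the 8 tested receptors, 4 had a higher and 4 a lower mean in KO libraries on the log2 scale, and their median log2 fold change was -0.08. For all tested genes the median was 0.00, and 6391 of 12735 (50.2%) were higher. In 0 of the 9 receptors were the groups apart, against 4.91% of all tested genes. With the block, 4 of 8 receptors (Htr2a, P2rx1, P2ry2 and Adora2a) had an unadjusted p under 0.05, beside 10.2% of all tested genes, and 0 passed after adjustment (percent called: 0.00785). Since the receptors were named with this comparison known, nothing is read from that count. In P2rx1, Htr2a and P2ry2 the KO library was lower in all 3 same-numbered pairs, and in Adora2a and P2rx4 it was higher in all 3. These are 5 of 8 tested receptors, and 29.4% of all tested genes kept 1 direction in all 3 pairs.

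**Figure D3:**
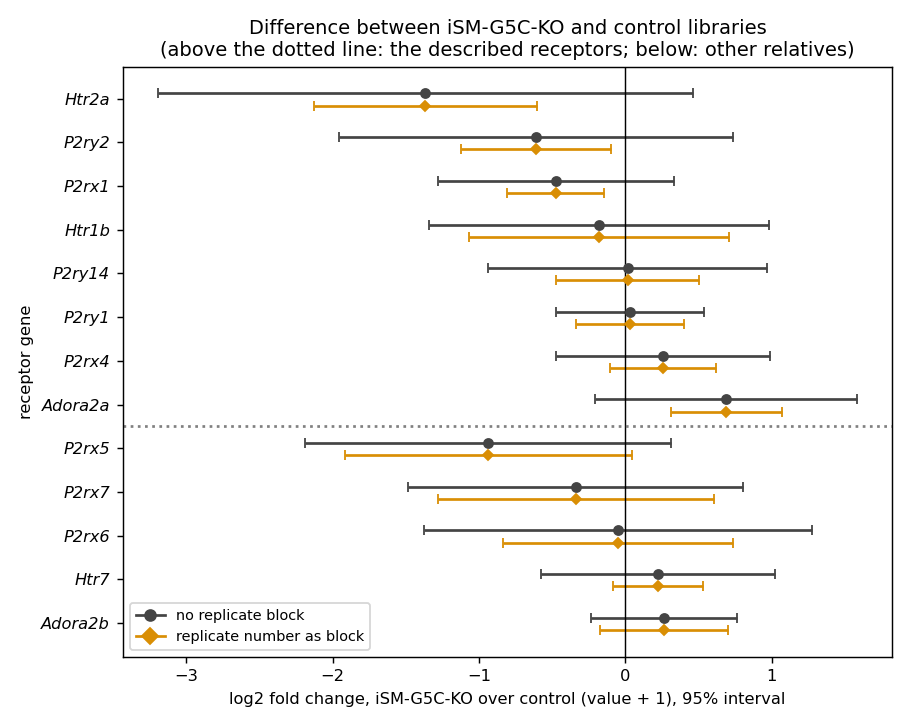
Log2 fold change of iSM-G5C-KO over control libraries on the log2(value + 1) scale with 95% intervals for the 8 tested receptors (top) and 5 tested relatives (bottom), without a block (grey circles) and with the replicate number as a block (orange diamonds). All grey intervals include 0, among them that of Htr2a from -3.20 to 0.46, while with the block those of Htr2a, P2ry2, P2rx1 and Adora2a do not.

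The values of 5 of the 8 tested receptors set the libraries numbered 1 apart, and no label says what the number means. Htr2a and P2ry2 were higher in both libraries numbered 1 than in the other 4, a pattern that 23.3% of all tested genes shared. P2rx4, P2ry1 and Adora2a were lower in both libraries numbered 1, which 18.2% of all tested genes shared. P2rx1, Htr1b and P2ry14 did neither. Depth also followed the number, with 2581454 estimated reads in KO library 1 and 2935114 in control library 1, against 1481186 in KO library 3 and 1556750 in control library 3, so number and depth cannot be told apart.

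Markers of several cell types also varied among the libraries. Of the 8 smooth muscle markers, 1 set both libraries numbered 1 above the other 4, and the summed level did not. That 1 gene, Myocd, the smooth muscle coactivator of serum response factor, had 571, 272 and 252 in KO libraries and 619, 493 and 281 in controls. Both libraries numbered 1 were below the other 4 for 8 of 8 fibroblast, 7 of 8 pericyte and 5 of 8 endothelial markers. The same held for 4 of 8 skeletal muscle fibre markers, 0 of 8 smooth muscle markers and 18.2% of all tested genes. The 8 pericyte markers, among them Pdgfrb and Kcnj8, summed to 10596, 13351 and 17431 in KO libraries and 9955, 11732 and 15136 in controls, and 8 of 8 had a higher mean in KO libraries on the log2 scale. Each of the 8 smooth muscle markers had a lower mean there on that scale, and their median log2 fold change was -0.10. Their log2 fold changes ran from -0.38 for Myocd to -0.003 for Des and -0.0003 for Acta2. Acta2 averaged 1108.3 normalised counts in KO libraries and 1106.7 in controls. Pericyte markers ran from 0.02 for Cspg4 to 0.30 for Kcnj8. Fibroblast markers summed to 4277, 7324 and 6872 in KO libraries and 5069, 6824 and 7825 in controls, with 1 of 8 higher and 7 lower. Skeletal muscle fibre markers summed to 1952, 4057 and 8571 in KO libraries and 1357, 2026 and 3137 in controls. On the log2 scale 8 of 8 were higher. Ttn alone had 660, 1638 and 5386 in KO libraries and 422, 442 and 868 in controls. The KO mean ran from 99.3% of that of controls for Ckm to 444% for Ttn. Ttn and Ryr1, with log2 fold changes of 1.72 and 1.50, had an unadjusted p under 0.05 (limma, adjusted p = 0.999 for both). None of the genes in these marker lists was at 0 in any library. Their part in the receptor values was not tested.

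**Figure D4:**
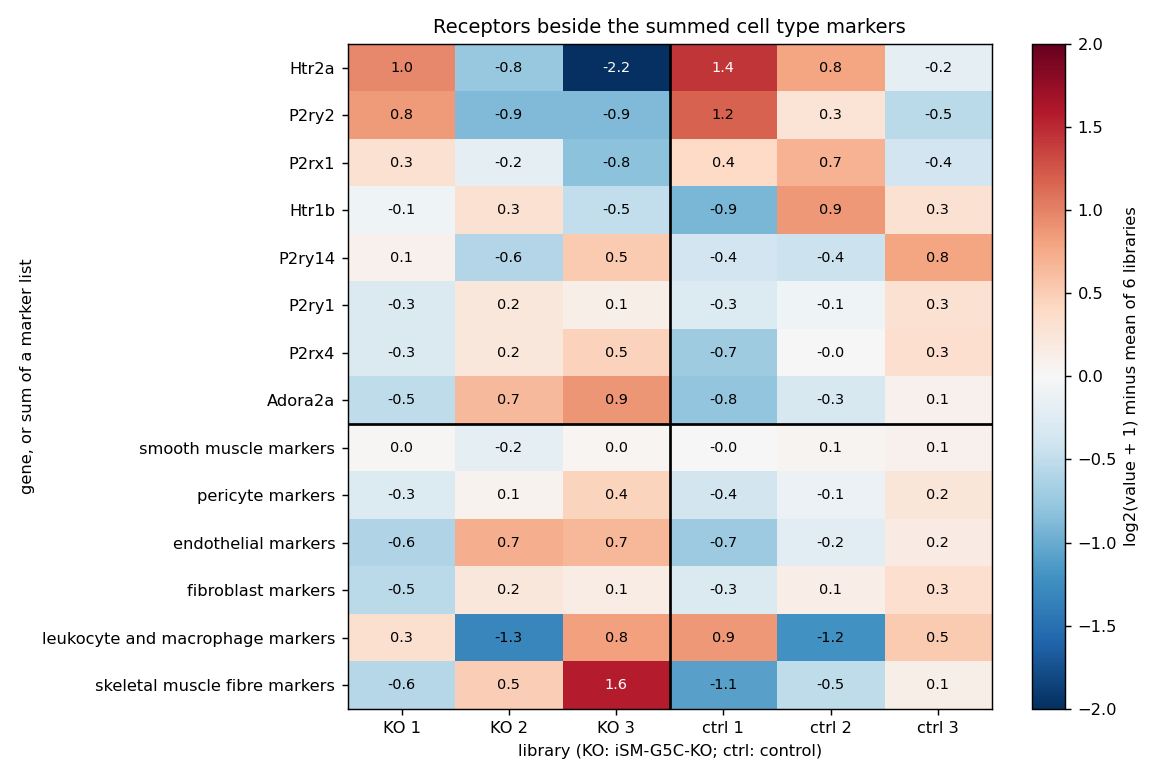
Log2(value + 1) minus the mean of the 6 libraries for the 8 tested receptors (top) and for the summed level of 6 marker lists (bottom), with iSM-G5C-KO libraries left of control libraries. Htr2a runs from -2.25 in KO library 3 to 1.43 in control library 1, and Adora2a from -0.80 in control library 1 to 0.88 in KO library 3.

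Leukocyte and macrophage markers, relevant to P2ry6, P2rx4, P2rx7 and P2ry14, mark cells that the CD45 depletion was meant to remove. They summed to 338, 109 and 479 in KO libraries and 494, 117 and 393 in controls, lowest in both libraries numbered 2. Of 6 tested, 3 were higher and 3 lower in KO libraries, and Itgam was at 0 in both libraries numbered 2. P2ry14 had 42, 26 and 57 in KO libraries and 30, 29 and 69 in controls, where libraries 1 and 2 differed by 1. Like the marker sum, P2ry14 was lowest in both libraries numbered 2. P2rx7 had 17, 6 and 22 in KO libraries and 13, 18 and 21 in controls. In KO libraries P2ry14 and P2rx7 had the order of the marker sum, and in controls neither had it. P2rx4 was lowest in both libraries numbered 1, and P2ry6 was equal in libraries 1 and 2 of each group. The part of these cells in the 4 receptors was not tested. T and B cell markers summed to 2 to 16 in KO libraries and 2 to 12 in controls, mast cell markers to 2 to 40 in KO libraries and 1 to 18 in controls, and erythroid markers to 15 to 35 in KO libraries and 13 to 20 in controls. Schwann cell markers summed to 171 to 319 in KO libraries and 152 to 307 in controls, and satellite cell markers to 113 to 133 in KO libraries and 117 to 146 in controls.

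Of the genes that supply, clear and transduce the ligands, 0 passed limma's test over all genes. Of 11 genes of serotonin synthesis, uptake and breakdown, 4 were tested, 3 higher and 1 lower, and their median log2 fold change was 0.06. The 3 with the highest means are named. Aldh2, an aldehyde dehydrogenase, was at 526, 536 and 730 in KO libraries and 525, 568 and 614 in controls. Maoa, monoamine oxidase A, was at 130, 122 and 136 in KO libraries against 127, 133 and 114 in controls. Slc22a3, a monoamine transporter, was at 192, 67 and 67 in KO libraries against 118, 121 and 82 in controls. The synthetic enzymes Tph1 and Tph2 and the serotonin transporter Slc6a4 were at or below 5 in every library.

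Of 12 genes of nucleotide release and breakdown, 6 were tested, 3 higher and 3 lower, with a median of -0.03. Entpd1, the ectonucleotidase CD39 that degrades ATP and ADP, had 564, 294 and 214 in KO libraries and 581, 447 and 276 in controls. Like Htr2a and P2ry2, it was highest in both libraries numbered 1 and lower in each KO library than in the control of the same number. The same held for Myocd and for Itpr1 and Adcy5, given below, among others. Of all tested genes, 23.3% were highest in both libraries numbered 1, and 29.4% kept 1 direction, higher or lower, in all 3 pairs. The share that did both was not counted, so nothing is read from this likeness. Enpp1, which cleaves ATP to AMP, had 155, 196 and 244 in KO libraries against 128, 143 and 247 in controls, and Entpd2, which prefers ATP, had 73, 145 and 172 in KO libraries against 85, 152 and 166 in controls. Nt5e, the CD73 enzyme that makes adenosine from AMP, was at 1, 4 and 10 in KO libraries and 9, 26 and 8 in controls and fell below the filter. Of 8 genes of adenosine uptake and metabolism, 6 were tested, 4 higher and 2 lower, with a median of 0.13. Slc29a1, the equilibrative nucleoside transporter, had 196, 268 and 315 in KO libraries and 196, 238 and 255 in controls. Slc29a3, its relative on intracellular membranes, had 62, 81 and 84 in KO libraries against 58, 52 and 70 in controls. Adk, adenosine kinase, had 42, 43 and 62 in KO libraries against 39, 60 and 38 in controls.

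Among 11 tested Gq effectors, 5 were higher and 6 lower, and their median log2 fold change was -0.02. Itpr3, an inositol trisphosphate receptor, had 45, 45 and 43 in KO libraries and 35, 34 and 28 in controls, with no overlap and a log2 fold change of 0.45 (limma, unadjusted p = 0.0437, adjusted p = 0.999). The main isoform here, Itpr1, had 1914, 1292 and 1288 in KO libraries and 2051, 1740 and 1443 in controls. Among 12 Gs and Gi effectors, 8 were higher and 4 lower, with a median of 0.06. Adcy6, an adenylyl cyclase, was at 1247, 1391 and 1697 in KO libraries and 1254, 1349 and 1691 in controls, and Adcy5, a related cyclase, at 1133, 649 and 609 in KO libraries against 1168, 1132 and 755 in controls. Gnas, the Gs alpha subunit, was at 793, 819 and 996 in KO libraries against 768, 826 and 889 in controls.

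The profile over the 6 libraries of each receptor with a mean of at least 50 was set against the 8304 genes of that level that have no predicted-gene name. Nearest to P2rx1 were Ano10, Nkiras2 and Flot2, with Pearson r from 0.981 to 0.990. Nearest to P2rx4 were Rgs3, Radil and Cinp (0.992 to 0.994), and nearest to P2ry1 were Meg3, Rplp2 and Tmc5 (0.990 to 0.997). Nearest to Adora2a were Unc93b1, Hspa12a and Clip2 (0.995 to 0.996). These are the highest of many values over 6 points that share library, depth and number, and are given as a description.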

How the data were processed

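RNA was sequenced from 6 libraries of sorted EGFP-positive SMC, made from 5 ng of total RNA with a stranded low-input kit, per the labels' protocols. Per the submitters' processing notes, the tools included DESeq2 1.18.1, featureCounts 1.6.5, STAR 2.6.1d and Trimmomatic 0.39, and the builds mm10 and GRCm38.p5, without the role of each. The deposited table holds, as a score, gene counts that the authors scaled by a factor for each library and rounded to whole numbers (from the table's name, the spacing of low values and DESeq2 in those notes), so no count test was used. The worth of 1 read (0.755 to 1.3975) was estimated by a grid search from 0.6 to 2.0 in steps of 0.0005. Nothing states that libraries of a group are separate animals, so the spread behind p-values may be technical.

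Groups were compared with limma 3.58.1 (R 4.3.3) on log2(value + 1) with a trend, 2-sided, over the 12735 genes with a mean of at least 10, with Benjamini-Hochberg adjustment. This scale understates changes of low genes. The script was tested on simulated data. Receptors and lists were chosen with earlier results of these data known. The genes named are the 10 receptors, their relatives with a mean of at least 10, overlapping genes and the 3 genes nearest in profile. From the ligand and effector lists, members with an unadjusted p under 0.05 or else the 3 with the highest mean are named. From the marker lists, members with an unadjusted p under 0.05 are named. Others were named after their values were seen. Exonic lengths are from GENCODE M21 (GRCm38), and upstream sequences from RefSeq (GRCm38.p6).

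After subtracting group means, KO and control libraries of the same number correlated over genes (r = 0.586, 0.310 and 0.444 for numbers 1, 2 and 3). Pairs of unlike number ran from -0.496 (KO library 1, control library 3) to 0.157 (KO library 2, control library 3). No label says what the number marks. It was left out of the main fit and was used as a block in alternatives only. In total 17 alternatives were run.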

Additional observations from a re-analysis of the deposited data

How the results depend on the processing

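None of the 8 tested receptors passed an adjusted p of 0.05 under any alternative in which it was tested; the smallest adjusted p was 0.0626 (limma), for Adora2a with the replicate block and number 1 left out. Htr2a, P2rx1 and P2ry2 were lower, and Adora2a higher, in KO libraries in every alternative. Leaving out 1 library gave -2.19 to -0.58 for Htr2a, -0.78 to -0.19 for P2rx1, -1.19 to -0.17 for P2ry2 and 0.42 to 1.11 for Adora2a, and -0.037 to 0.49 for P2rx4, -0.68 to 0.21 for Htr1b, -0.092 to 0.19 for P2ry1 and -0.24 to 0.42 for P2ry14, whose signs thus turned. Sample quality weights gave -1.74 for Htr2a, -0.89 for P2rx1, -0.95 for P2ry2, 0.91 for Adora2a, -0.65 for Htr1b, 0.26 for P2rx4, 0.20 for P2ry1 and 0.12 for P2ry14. With the replicate block, leaving out both libraries numbered 1 also turned P2ry14 (-0.21), leaving out both numbered 2 turned Htr1b (0.011) and P2ry1 (-0.10), and leaving out both numbered 3 turned Htr1b (0.13). The count of genes past the threshold over the whole table was 0, and was 2 with sample quality weights, 1 with the replicate block, 61 when the block was used without number 1, and 1 when it was used without number 2; the cause was not tested. It was 0 in the other alternatives, each single library left out included. Htr2a, Htr1b, P2ry2 and P2ry14 were not tested at a mean of at least 50. Depth limits the low receptors most: Htr2a rests on an estimated 3 reads in KO library 3.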
